A study of Mus musculus with 38 samples.

Results

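The Slc25 family holds solute carriers, most of them in the mitochondrial inner membrane. Its members were taken as the genes of the count table whose mouse symbol is Slc25a followed by a number, with the carnitine carrier Slc25a20 left out, which gave 46 of the 54352 genes in the table. The libraries measured polyadenylated RNA of organoids grown from intestinal crypts of C57BL6 mice, and the labels call them intestinal stem cell organoids. The crypts were grown for 8 days and 2 passages in 65% matrigel, either with 1 uM GW501516 (GW), a synthetic compound that activates the nuclear receptor PPARδ, or with 0.1% DMSO as the vehicle. Wild-type organoids (WT) had 5 vehicle and 5 GW libraries. Organoids labelled Ppard-fl/fl (D), whose floxed gene encodes PPARδ, had 5 and 3. Organoids labelled Ppara-null (A), which lack the related receptor PPARα, had 5 and 5, and those labelled with both alleles (DA) had 4 and 5. The series' design text calls the D, A and DA mice knockouts, and the labels name no recombinase for the floxed gene. An additional sample, whose title and genotype label disagree, was given no group, and which of the GW columns of D is its own cannot be told from the names. Nothing in the labels ties libraries to separate mice or cultures, so each p-value measures only the spread between these libraries, which may be technical.

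Carriers of this family share a fold of repeated transmembrane helices, are encoded in the nucleus and are made in the cytosol. Those of the inner membrane are imported through the outer membrane TOM complex, the small TIM chaperones and the TIM22 complex. Each carrier exchanges or imports a small set of solutes: ADP for ATP, phosphate, citrate, malate, amino acids, coenzymes or metal ions. In the intestinal epithelium mitochondria oxidise glutamine, glutamate and fatty acids, and PPARα and PPARδ are known for raising genes of fatty acid oxidation there.

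Libraries held 353347 to 577557 counts (median 483848), and values are given as CPM, counts per 1e+06 of a library. A single count was therefore worth 1.73 to 2.83 CPM. The 6 epithelial markers summed to 1082 to 2285 CPM in each library and the 7 stem cell markers to 152 to 346 CPM. Paneth, goblet and enteroendocrine markers were also present, so the libraries held a mix of epithelial cell types. Immune markers had 44 counts in all with Ptprc, Cd3e and Cd79a at 0, and stromal markers had 4 counts with Col1a1, Col1a2, Col3a1 and Pdgfra at 0. The summed level of the 8 enterocyte markers differed with GW, from a group mean of 20654 to 43855 CPM in WT, from 25957 to 40376 in D, from 13277 to 27975 in A, and from 12964 to 12277 in DA; their part in the values below was not tested. In such bulk RNA, fewer cells of a type and less RNA per cell cannot be told apart. The column names number the libraries. They were divided here after number 36, a boundary that the names of the columns used do not mark. This gave 23 libraries in the run 1 to 36 and 14 in the run 37 to 60, and every group has libraries in both runs.

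Together the 46 members held 59313 of 17676522 counts, between 0.261% and 0.404% of a library. The group means of this share were close, from 0.317% under GW in DA to 0.356% in vehicle A. Of the 46, 14 had enough counts to be tested and held 96.8% of the family's counts, 27 had counts but too few, and 5 had none: Slc25a18, Slc25a21, Slc25a31, Slc25a41 and Slc25a54. A count of 0 over all libraries allows a level of up to 0.170 CPM (3 counts; counting error only). Between 27 and 34 members had a count in any 1 library, and 17 had a count in every library. The most counted untested member was Slc25a38, the glycine carrier, with 212 counts. The filter asks for enough counts in enough libraries, so a total alone does not decide it.

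**Figure D1:**
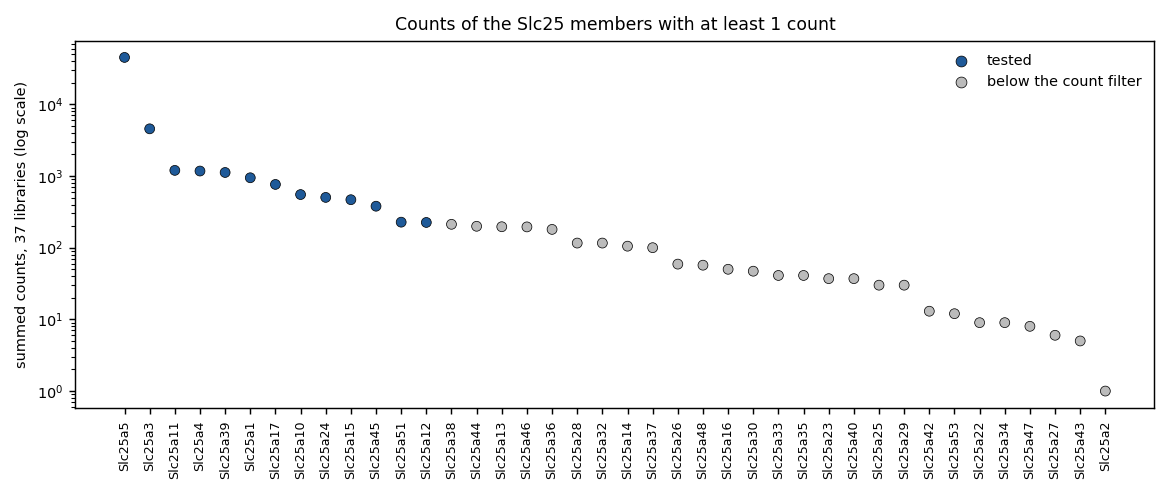
Counts summed over the 37 libraries for 40 members with at least 1 count, on a log axis; blue points were tested and grey points were below the filter on low counts. Slc25a5 stands at 45102 counts, the next member, Slc25a3, at 4551, and all others at 1198 or fewer.

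The family's counts came mostly from carriers of adenine nucleotides and phosphate, which serve the ATP synthase. Slc25a5 (chrX:36795651-36798807, plus strand, build GRCm38), the adenine nucleotide translocator ANT2 that exchanges ADP for ATP in proliferating cells, held 45102 counts, 76.0% of the family's. It averaged 2547 CPM over the 37 libraries, with 692 to 1628 counts in each. Slc25a3 (chr10:91116574-91124059, minus strand), the phosphate carrier, held 4551 counts and averaged 257 CPM. Slc25a4 (chr8:46206797-46211284, minus strand), the translocator ANT1 best known from heart and muscle, averaged 66.4 CPM, and Slc25a31, a translocator known from testis, had no count. Slc25a4 held between 1.58% and 4.32% of the counts of Slc25a4 and Slc25a5 in any library. The 3′ tags were not divided by transcript length, because each transcript gives tags from its 3′ end, so an order between genes is an order of counts.

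The promoters of these 3 genes are shown because they carry most of the family's counts and because GW acts on receptors that bind DNA. The sequences are RefSeq's, on GRCm38.p6, and run from 250 bases before to 50 bases after RefSeq's start of transcription, read 5′ to 3′ on the gene's strand. The gene coordinates above are GENCODE's, whose starts differ. RefSeq's start lies 54 bases upstream of GENCODE's for Slc25a5, 222 bases downstream for Slc25a4 and 92 bases downstream for Slc25a3. Capitals mark matches on either strand to 4 promoter motifs. The TATA box was searched as TATAA. The GC box was searched as the letters CCGCCC. The CAAT box was searched as CCAAT. The motif of NRF1, a regulator of nuclear genes for mitochondria, was searched under its name as the pair GCGCA and GCGC with any 1 base between them.
Slc25a5 (chrX:36795347-36795646, plus strand): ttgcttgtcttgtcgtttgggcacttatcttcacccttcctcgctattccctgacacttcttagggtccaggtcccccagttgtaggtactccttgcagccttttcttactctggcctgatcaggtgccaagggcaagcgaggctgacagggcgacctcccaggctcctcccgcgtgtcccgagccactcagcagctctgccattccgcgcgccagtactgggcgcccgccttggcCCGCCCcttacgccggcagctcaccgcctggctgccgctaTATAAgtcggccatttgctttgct
Slc25a4 (chr8:46211013-46211312, minus strand): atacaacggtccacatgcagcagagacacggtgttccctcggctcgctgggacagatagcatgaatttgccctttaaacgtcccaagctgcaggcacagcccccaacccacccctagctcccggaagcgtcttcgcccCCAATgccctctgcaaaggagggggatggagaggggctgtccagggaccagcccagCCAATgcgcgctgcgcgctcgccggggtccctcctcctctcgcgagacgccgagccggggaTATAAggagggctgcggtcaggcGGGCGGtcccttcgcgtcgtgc
Slc25a3 (chr10:91123918-91124217, minus strand): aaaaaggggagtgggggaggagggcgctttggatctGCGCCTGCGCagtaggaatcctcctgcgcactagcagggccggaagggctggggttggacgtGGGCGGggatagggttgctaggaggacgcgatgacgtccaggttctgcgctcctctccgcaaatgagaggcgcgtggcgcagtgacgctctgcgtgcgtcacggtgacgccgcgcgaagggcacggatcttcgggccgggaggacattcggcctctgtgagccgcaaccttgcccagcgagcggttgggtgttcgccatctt
All 3 hold a GC box. Slc25a5 and Slc25a4 also hold a TATA box, whose first base lies at position 27 and 6 counted from 1 at RefSeq's start. Against GENCODE's start these bases lie 28 upstream and 227 downstream. Slc25a4 holds 2 CAAT boxes, and Slc25a3 holds the NRF1 motif and no TATA or CAAT box. The RefSeq table held 35 of the 46 members and 12 of the 14 tested ones. The GC box was found in 29 of the 35 members, against 38.2% of the 27025 genes in the table, the CAAT box in 19 (41.1% of genes), the TATA box in 5 (28.0%) and the NRF1 motif in 2 (5.19%). The PPAR response element was searched as AGGTCA repeated after any 1 base. It was in no member's window and in 0.0481% of all windows. A single AGGTCA, which every such element contains, was in 4 of 35 members and 18.1% of genes. Members' windows had a median GC content of 60.3%, against 52.7% over all genes. A match is a description of letters, not of a bound site.

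Slc25a5 lay in the same range in every group. In WT it had 2522, 2019.8, 2314, 2990.2 and 2918 CPM in the 5 vehicle libraries and 2458, 2416, 2053, 2852 and 3038 in the 5 GW libraries. Vehicle D had 2646, 1958, 2179.9, 3142 and 2697 CPM and GW D 2538, 2055 and 3117. The vehicle and GW ranges overlap in both genotypes, and each group spans a wide range. In A the vehicle libraries had 2551, 2393, 2585, 3016 and 2936 CPM and the GW libraries 2488, 1939, 2572, 2886 and 2906. Vehicle DA had 2513, 2790.0, 2031 and 2830.1 CPM and GW DA 2782, 2243, 1979, 2239 and 2644. The 8 group means ran from 2377 under GW in DA to 2696 in vehicle A, a ratio of 1.13, and the range inside each group was wider than the distance between these extremes. Its variance within groups was 28.5 times that of counting alone, so its precision was limited by differences between libraries and not by depth.

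Slc25a3 and Slc25a4 also overlapped between groups. The phosphate carrier had 229, 173, 223, 283 and 234 CPM in vehicle D and 318, 233 and 276 in GW D, its lowest and highest group means (228 ± 39.1 and 276 ± 42.4 CPM, mean ± SD, n = 5 and 3), and the groups overlap. Its other 6 group means lay between 243 and 274 CPM. Slc25a4 was lowest in vehicle WT, with 40.5, 68.1, 47.5, 56.2 and 64.5 CPM, and highest under GW in DA, with 98.0, 101, 88.9, 47.8 and 66.4. These 2 groups also overlap, since GW DA replicate 4 lies below 3 of the vehicle WT libraries.

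Carriers of di- and tricarboxylates, aspartate and glutamate made up 5.27% of the family's counts. Slc25a11 (chr11:70644196-70647479, minus strand), the oxoglutarate-malate carrier of the malate-aspartate shuttle, was the most counted of these, with group means from 53.4 ± 15.5 CPM under GW in WT to 76.3 ± 20.0 in vehicle A (mean ± SD, n = 5 each). Slc25a1, the citrate carrier that supplies cytosolic acetyl-CoA, had group means of 48.0 to 60.9 CPM, and the dicarboxylate carrier Slc25a10 of 24.1 to 34.3. The 2 aspartate-glutamate carriers had similar counts: Slc25a12 had 225 and was tested, and Slc25a13 had 196 and was not. The glutamate carrier Slc25a22 had 9 counts, while its close relative Slc25a18 and the oxodicarboxylate carrier Slc25a21 had none.

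Carriers of coenzymes, nucleotides and glutathione held 4.73% of the counts. Slc25a39, which brings glutathione into mitochondria, averaged 62.8 CPM, while its paralogue Slc25a40 had 37 counts in all. Slc25a17, a carrier of coenzyme A, FAD and NAD in the peroxisomal membrane, averaged 43.1 CPM, and the NAD carrier Slc25a51 12.9. The pyrimidine nucleotide carrier Slc25a36 was not tested, but had 2 to 10 counts in every library. The variance of Slc25a17 and Slc25a51 within groups was 0.97 and 0.89 times that of counting, so for these the number of counts sets the error. Among carriers of other amino acids, the ornithine carrier Slc25a15 of the urea cycle averaged 26.6 CPM and Slc25a45 21.3. The branched-chain amino acid carrier Slc25a44 (199 counts) stayed below the filter with Slc25a38.

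Of the 5 carriers grouped under ATP-Mg and phosphate, Slc25a24 alone was tested, at 28.7 CPM. Slc25a23 and Slc25a25 had 37 and 30 counts, and Slc25a41 and Slc25a54 none. The mitoferrins, which import iron, were both detected and not tested: Slc25a28 had 116 counts and Slc25a37 100. The 3 carriers resembling uncoupling proteins, Slc25a14, Slc25a30 and Slc25a27, had 105, 47 and 6 counts. Of the 6 with an outer membrane site or no established substrate, Slc25a46, which acts in mitochondrial dynamics at the outer membrane, had 195 counts and the other 5 had 5 to 41. Every gene with a count was then fitted, 20192 in all. None of these 27 further members passed in any of the 14 comparisons, where 8 to 110 of all genes did. In each comparison 0 to 3 of the 27 had an unadjusted p under 0.05. The share of all genes at that p is not given for this fit, so these numbers cannot be read as many or few.

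**Figure D2:**
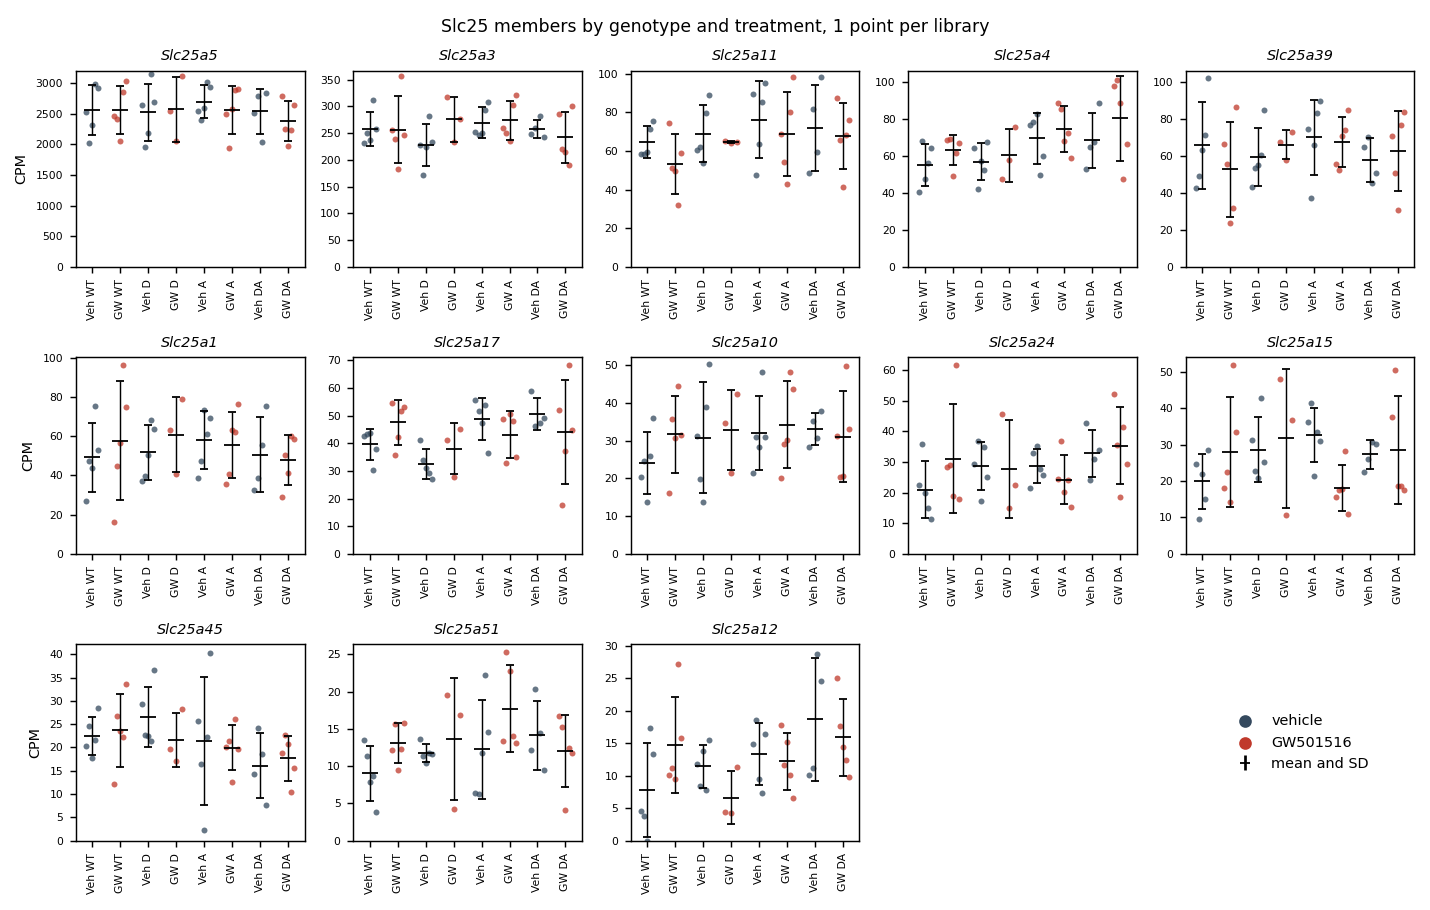
CPM of 13 tested members in the 8 groups, 1 point per library with the group mean and SD, each member on its own axis. For every member the vehicle and GW libraries of a genotype overlap, and Slc25a5 group means stay between 2377 and 2696 CPM.

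Whether the PPARδ agonist changed the carriers was tested in each genotype with edgeR's quasi-likelihood test, with p-values adjusted by Benjamini-Hochberg over 4902 genes and a threshold of 0.05. In WT 0 of the 14 members passed, where 0.408% of all genes did. At an unadjusted p under 0.05 (6.18% of all genes by edgeR) there was 1 member by edgeR and by DESeq2 and there were 2 by limma-trend. Neither DESeq2 nor limma-trend passed a member after adjustment, and their shares of all genes are not given, here or below. 9 members were higher and 5 lower, with a median log2 fold change of 0.15 against 0.01 over all genes. For comparison, the excluded Slc25a20, which carries acylcarnitines inward for fatty acid oxidation, rose from 26.1 ± 10.3 to 66.8 ± 15.2 CPM (log2 fold change 1.31 ± 0.28 SE, edgeR adjusted p = 0.00900). That call was missed without vehicle WT replicate 1 (adjusted p = 0.0518), without GW WT replicate 5 (0.0773) and within libraries 37 to 60 (0.369). Of the members named here, Slc25a12 and Slc25a24 had the smallest p in WT.

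Slc25a12, the aspartate-glutamate carrier, had 4.50, 3.78, 0, 17.3 and 13.3 CPM in vehicle WT and 10.1, 11.2, 9.42, 27.1 and 15.8 under GW. The first 3 vehicle libraries, which are those of the run 1 to 36, were the low ones, and the other 2 lay within the GW range. Its difference of 0.86 ± 0.47 did not pass (edgeR adjusted p = 0.816) and was 1.79 within libraries 1 to 36 and 0.39 within 37 to 60. Slc25a24 had 22.5, 35.9, 19.8, 15.1 and 11.4 CPM in vehicle WT and 28.3, 29.1, 18.8, 61.7 and 17.8 under GW, where replicate 4 stands alone. Its difference of 0.47 ± 0.34 (edgeR adjusted p = 0.859) was -0.08 within libraries 1 to 36 and 1.44 within 37 to 60. Slc25a5 differed by -0.03 ± 0.11, a 95% interval of -0.25 to 0.19.

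In D, where the floxed gene is the receptor that GW targets, 0 of 14 members passed, where 0% of all genes did. No member reached an unadjusted p under 0.05 (3.24% of all genes by edgeR) by edgeR, DESeq2 or limma-trend. The smallest p belonged to Slc25a3, given above in every library, with a log2 fold change of 0.27 ± 0.14 (SE; edgeR adjusted p = 1.00) and a 95% interval of -0.02 to 0.57. Slc25a12 had 11.7, 8.49, 13.9, 7.80 and 15.5 CPM in vehicle D and 4.35, 4.28 and 11.3 under GW, 2 of the 3 GW libraries lying below all vehicle libraries on 2 counts each. Its difference was -0.86 ± 0.61 (edgeR adjusted p = 1.00). Slc25a45, placed among the amino acid carriers, had 29.3, 22.6, 22.5, 21.4 and 36.7 CPM in vehicle and 19.6, 17.1 and 28.2 under GW, a difference of -0.32 ± 0.38 with overlapping groups. Slc25a20 had 0.78 ± 0.31 in this genotype, a 95% interval of 0.16 to 1.39, and did not pass (edgeR adjusted p = 1.00, unadjusted p = 0.0151).

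In A 0 of 14 members passed, where 0.306% of all genes did. At an unadjusted p under 0.05 (3.59% of all genes by edgeR) there was 1 member by each of edgeR, DESeq2 and limma-trend, by edgeR the ornithine carrier Slc25a15 (chr8:22375551-22398597). Slc25a15 had 36.3, 41.3, 21.2, 33.3 and 31.1 CPM in vehicle A and 15.6, 17.5, 17.7, 28.1 and 10.9 under GW. 4 GW libraries lay below all 5 vehicle libraries and GW replicate 4 lay inside the vehicle range. Its log2 fold change was -0.82 ± 0.34 (SE; unadjusted p = 0.0207, edgeR adjusted p = 0.999), and it was -0.92 within libraries 1 to 36 and -0.67 within 37 to 60. The NAD carrier Slc25a51 had 6.41, 6.20, 11.8, 22.2 and 14.6 CPM in vehicle A and 13.4, 25.3, 22.7, 14.1 and 13.1 under GW. Its difference of 0.54 ± 0.35 had opposite signs within the runs, with 1.37 within libraries 1 to 36 and -0.40 within 37 to 60. Slc25a17 differed by -0.15 ± 0.21, from 48.9 ± 7.58 to 43.1 ± 8.41 CPM. Slc25a20 had 1.52 ± 0.30 in this genotype and passed (edgeR adjusted p = 0.00789).

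In DA, with both receptor genes altered, 0 of 14 members passed, where 0% of all genes did. No member had an unadjusted p under 0.05 (3.2% of all genes by edgeR) by edgeR, DESeq2 or limma-trend. Slc25a4 had 52.9, 64.9, 67.9 and 88.9 CPM in vehicle DA and 98.0, 101, 88.9, 47.8 and 66.4 under GW. The 3 highest values of GW DA are its libraries of the run 1 to 36, and the highest vehicle value is the only vehicle library of the run 37 to 60. Its difference of 0.23 ± 0.21 (SE; edgeR adjusted p = 1.00) had opposite signs within the runs, 0.66 within libraries 1 to 36 and -0.63 within 37 to 60. Slc25a5, with its values above, differed by -0.09 ± 0.11 and Slc25a17 by -0.18 ± 0.22. For the last, GW DA ran from 17.7 to 68.5 CPM, a range that holds all 4 vehicle libraries. Slc25a20 had 0.26 ± 0.31 in this genotype and did not pass.

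The mean GW effect over the 4 genotypes gave the narrowest intervals. Again 0 of 14 members passed, where 0.653% of all genes did. None had an unadjusted p under 0.05 by edgeR, DESeq2 or limma-trend, where 6.65% of all genes did by edgeR. 7 members were higher and 7 lower, with a median of 0.00. The 3 with the smallest p were Slc25a4 (0.15 ± 0.11, edgeR adjusted p = 0.900), Slc25a11 (-0.14 ± 0.11, 0.906) and Slc25a51 (0.25 ± 0.20, 0.913). For Slc25a4 the value was 0.21 within libraries 1 to 36 and 0.00 within 37 to 60, and for Slc25a11 it was -0.02 and -0.38. Slc25a5 differed by -0.04 ± 0.06, with a 95% interval of -0.15 to 0.08, and Slc25a3 by 0.04 ± 0.07, with -0.09 to 0.18. All 14 intervals of this mean effect lay between -1 and 1, on the log2 scale. Within a genotype fewer did: 9 of 14 in WT, 10 in D, 11 in A and 11 in DA. Slc25a20 had 0.97 ± 0.15 (edgeR adjusted p = 5.79e-05), with 0.97 and 0.92 within the runs, where the second did not pass (0.0678).

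**Figure D3:**
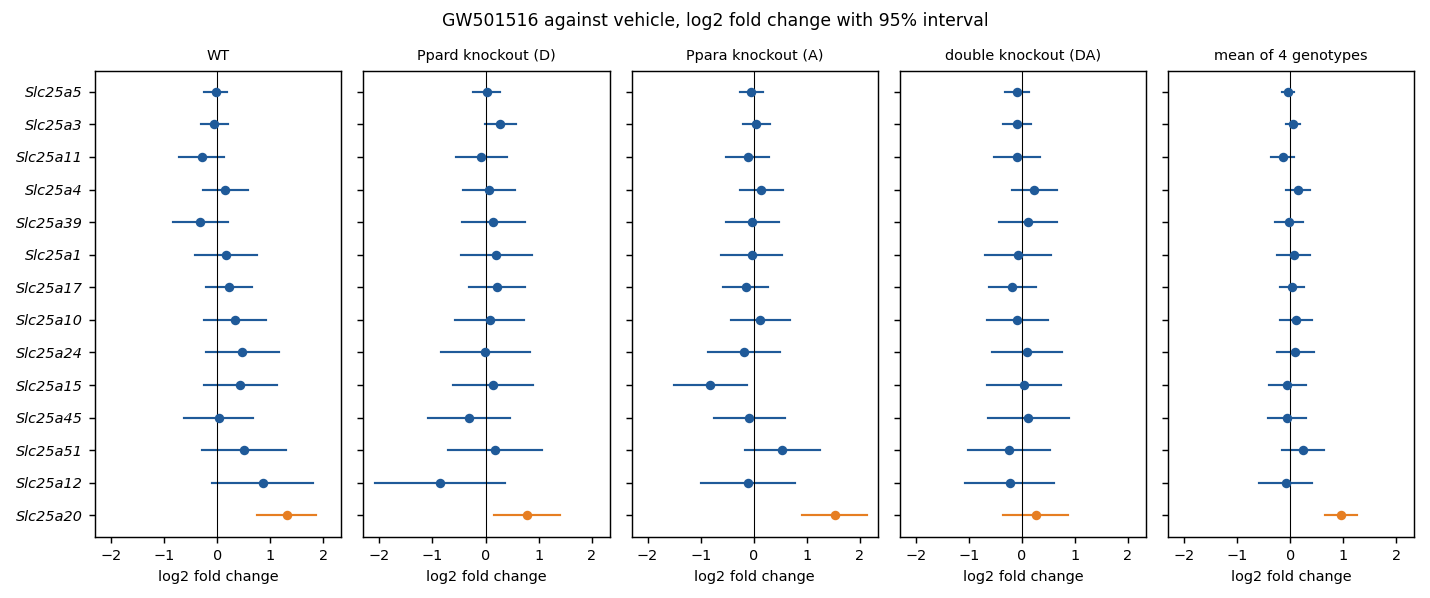
Log2 fold change of GW against vehicle with its 95% interval for 13 tested members and, in orange, the excluded Slc25a20, in WT, D, A and DA and as the mean over them. The members' intervals for the mean effect lie between -1 and 1 around 0, and Slc25a20 stands at 0.97.

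No member's vehicle and GW libraries failed to overlap in any genotype: the count was 0 of 14 in each, where 1.16% of all genes in WT, 2.57% in D, 0.775% in A and 1.14% in DA did not overlap. Whether the response itself differed from WT was tested as an interaction, and 0 of 14 members passed for D (0% of all genes), for A (0%) or for DA (0.0816%). At an unadjusted p under 0.05, edgeR, DESeq2 and limma-trend each had 1 member for D, 1 for A and 0 for DA, where edgeR had 3.22%, 3.33% and 4.1% of all genes. For D minus WT this was Slc25a12 by edgeR, with -1.71 ± 0.77 (edgeR adjusted p = 1.00), from the opposite values in WT and D given above. For A minus WT it was Slc25a15, with -1.25 ± 0.48 (edgeR adjusted p = 1.00), which had 0.43 ± 0.34 in WT.

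The knockouts were also compared with WT within a treatment. In vehicle, 0 of 14 members passed for D (0.0408% of all genes), A (0.0816%) or DA (0.326%). At an unadjusted p under 0.05 there were 0, 0 and 1 members by edgeR, 0, 0 and 1 by DESeq2, and 0, 2 and 2 by limma-trend. The shares of all genes by edgeR were 3.47%, 4.45% and 6.1%, and those by DESeq2 and limma-trend are not given. The edgeR member was Slc25a12, with the vehicle WT values given above against 10.2, 11.1, 28.8 and 24.6 CPM in vehicle DA. DA replicates 3 and 4 lay above all WT libraries, and the other 2 lay inside the WT range. Its log2 difference was 1.19 ± 0.46 (SE; edgeR adjusted p = 0.629), with 2.42 within libraries 1 to 36 and 0.65 within 37 to 60. In the first of these the adjusted p was 0.130, the lowest of any member in any fit of the 14 comparisons. Under GW, 0 of 14 members passed for D (0.0612% of all genes), A (0.184%) or DA (0.836%), and none had an unadjusted p under 0.05 by edgeR, DESeq2 or limma-trend. By edgeR the shares of all genes under it were 3.47%, 4.96% and 8.69%. The comparisons with WT in 1 treatment share their WT libraries.

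Other genes of mitochondrial transport were read from lists of related carriers, other transporters, the import machinery and shuttle enzymes. Of the 5 genes with the carrier fold under other symbols, the uncoupling protein Ucp2 and the insertase Mtch2 were tested, and 0 of 2 passed in any of the 14 comparisons. Mtch2 had 872 ± 142 CPM in vehicle WT and 829 ± 132 under GW. Of 16 genes that import carriers, such as the TOM receptors, 15 were tested and none passed in any comparison. Of 19 other transporters 12 were tested, and 1 passed, in the mean GW effect alone. This was Mpc1, a subunit of the pyruvate carrier, which fell by 0.28 ± 0.07 in log2 (edgeR adjusted p = 0.0315).

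Mpc1 had 423, 471, 429.9, 469 and 425 CPM in vehicle WT and 408, 374, 356, 299 and 339 under GW, with every GW library below every vehicle library. In vehicle A it had 513, 455, 375, 459 and 439 CPM, against 356, 357, 356, 322 and 399.8 under GW, where the groups overlap. The call was missed in 14 of 37 fits that left out a single library (adjusted p = 0.0545 to 0.130), without the filter on low counts (0.125), and within libraries 1 to 36 (0.566) and 37 to 60 (0.0628). The libraries concerned were replicate 2 of vehicle WT, 3 of vehicle D, 1 and 2 of vehicle A, and 2, 3 and 4 of vehicle DA. Under GW they were replicates 4 and 5 of WT, 1 and 3 of D, 4 of A, and 4 and 5 of DA. Its partner Mpc2 had -0.01 ± 0.09. Of 13 shuttle enzymes all were tested and 1 passed, in WT and in the mean effect. Me1, the cytosolic malic enzyme that makes NADPH from malate, had 11.2, 5.67, 17.8, 19.5 and 1.90 CPM in vehicle WT and 32.3, 53.7, 35.3, 98.7 and 39.5 under GW, with no overlap. It rose by 2.14 ± 0.39 in log2 in WT (edgeR adjusted p = 0.00144). Within the runs the WT values of Me1 were 1.76 and 2.61 and missed the threshold (0.188 and 0.0576). Its mean GW effect was 0.99 ± 0.21 (edgeR adjusted p = 0.00864), with 0.84 and 1.25 within the runs, which also missed it (0.243 and 0.150). This mean covers unlike genotypes. In D Me1 had 8.49 to 15.5 CPM in vehicle and 21.4 to 26.1 under GW, with no overlap. In A the ranges were 9.26 to 21.4 and 6.68 to 48.1, and in DA 17.0 to 28.8 and 11.7 to 38.0, which overlap. The carriers Slc25a1, Slc25a10 and Slc25a11, which move citrate and malate, had 0.16 ± 0.29, 0.33 ± 0.29 and -0.29 ± 0.21 in WT and 0.06 ± 0.15, 0.11 ± 0.15 and -0.14 ± 0.11 in the mean effect, and did not pass in either.

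Close copies and overlapping genes could take counts from some members. The processed pseudogene Slc25a5-ps matched the last 500 bases of Slc25a5 at 95.2% identity and had 2965 counts, 4.93% to 7.75% of the pair's counts in a library, so how the authors' counting split them is uncertain. It did not pass in any of the 14 comparisons, and neither did Slc25a5 with the counts of its 5 copies added, whose mean GW effect was -0.04 ± 0.06. 4 further copies of Slc25a5 had 0 to 4 counts, and the copies matching Slc25a3 and Slc25a51 had none. Slc25a11 overlaps Rnf167 on the opposite strand, which had 144 counts, and Slc25a12 overlaps the pseudogene Gm13641, which had 10. Whether the counting used strand is not given in the sources used here, so reads of these pairs may not be separable.

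The 2 runs of library numbers gave more calls than any of the 14 comparisons. With the run as a term beside the 8 groups, a comparison added after the data were seen, 3 of 14 members passed, where 24.2% of all genes did, a share close to the members'. The citrate carrier Slc25a1 ran from 16.2 to 73.2 CPM (median 41.4) in libraries 1 to 36 and from 53.1 to 96.2 (median 68.9) in 37 to 60. Its log2 difference was 0.53 ± 0.12 (SE; edgeR adjusted p = 0.00159), and the group mean was higher in the second run in 8 of 8 groups. The dicarboxylate carrier Slc25a10 averaged 25.6 ± 6.83 CPM in the first run and 40.1 ± 7.80 in the second (SD). Its difference was 0.52 ± 0.12 (edgeR adjusted p = 0.00125), and its mean CPM was also higher in 8 of 8 groups. In the second run GW D and vehicle DA have 1 library each. Slc25a5 averaged 2349 ± 272 and 2872 ± 230 CPM, and its difference was 0.16 ± 0.05 (edgeR adjusted p = 0.0136). These 3 differences are on the TMM scale, and CPM and the family's share are not. By library size alone, as for CPM, the differences of Slc25a1, Slc25a10 and Slc25a5 were 0.67, 0.66 and 0.29. Slc25a5 missed the threshold in a fit without the filter on low counts (0.147, adjusted p = 0.183). Scaling by library size alone in place of TMM moved the median of all genes from 0.04 to 0.17 and gave 6 members, adding Slc25a3, Slc25a11 and Slc25a39. Slc25a4 had -0.22 ± 0.10 on the TMM scale and did not pass (edgeR adjusted p = 0.114). The family's whole share of counts averaged 0.310% ± 0.0329 in the first run and 0.375% ± 0.0262 in the second (SD). The labels do not say what the numbers stand for.

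**Figure D4:**
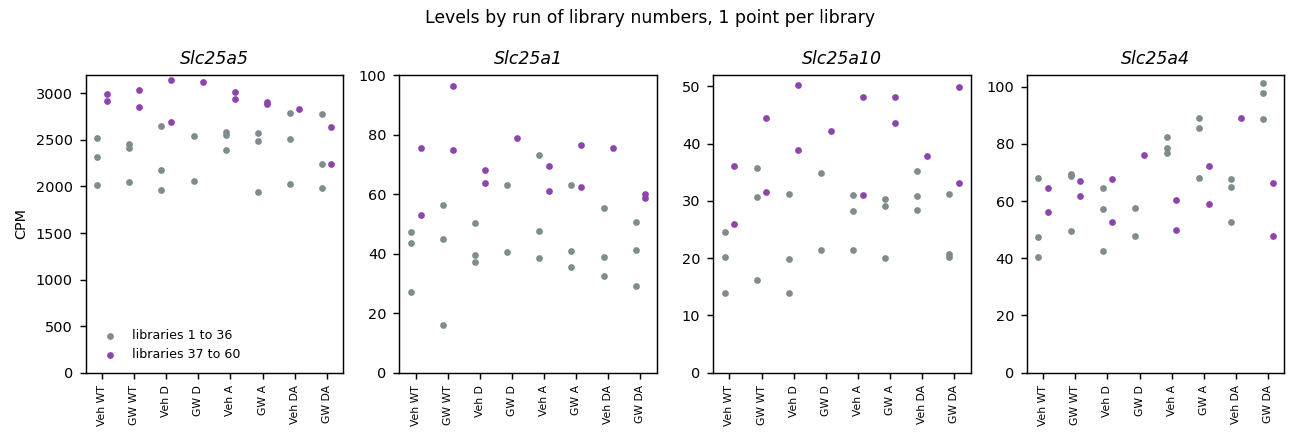
CPM of Slc25a5, Slc25a1, Slc25a10 and Slc25a4 in the 8 groups, with libraries of the runs 1 to 36 and 37 to 60 drawn apart. For Slc25a5, Slc25a1 and Slc25a10 the run 37 to 60 has the higher mean CPM in 8 of 8 groups. For Slc25a4 it does in 5 of 8. In that run GW D and vehicle DA have 1 library each.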

How the data were processed

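The deposited table used here holds raw counts for each Ensembl gene as whole numbers; a second table of log2 values was not used. The submitters' processing notes name Salmon (1.1.0), edgeR (3.26.8), R (3.6.2) and the build mm10, with no role, annotation or handling of molecular identifiers. Per the labels' protocols, TRI reagent RNA was read by 3′DGE, which counts tags from transcript 3′ ends. Symbols and positions came from GENCODE on the same build, in which 54109 of 54352 identifiers had a symbol. Of 57 columns 37 were used, and a column's name gave its treatment and genotype. The 20 not used were 19 named KD and 1 named GW in D with a suffix. Columns carry no replicate number, so replicates are numbered in column order.

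The filter filterByExpr, given the groups, kept 4902 genes and could hide changes in members with few counts. TMM factors and a single quasi-likelihood model of the 8 groups (glmQLFit and glmQLFTest, edgeR 4.0.16, R 4.3.3) gave the tests. Adjustment was by Benjamini-Hochberg within each of 14 comparisons. CPM are counts over the library total. Alternatives were DESeq2 1.42.0, limma 3.58.1 (limma-trend, prior count 2), no filter, the compared groups only, the run of library numbers as a block, each run alone, no columns with suffix 2, and each library left out. Scripts were tested on simulated data.

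The members and lists were chosen with earlier results of these data known. A tested member is counted in the totals and is not reported here. Values are given for the 3 members with the smallest p in each GW effect, the 4 most counted members, and up to 4 genes per other list.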

Additional observations from a re-analysis of the deposited data

Results flagged for a closer look

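In groups of 4 to 10 libraries, a value was marked when its gap to the nearest other library exceeded the 95% critical value of Dixon's test for the size of the group. Of 91 groups of tested members, 1 was marked, and chance marks about 1 in 20. The calcium-regulated carrier Slc25a24 had 61.7 CPM in GW WT replicate 4, on 25 counts, against 17.8 to 29.1 in the others. That library belongs to the run 37 to 60, within which the GW difference of Slc25a24 in WT was 1.44, against -0.08 within libraries 1 to 36.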

How the results depend on the processing

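No member passed in any of the 14 comparisons in 126 fits with another setting or in 188 fits that left out a library, and the lowest adjusted p of a member was 0.130 (DA against WT in vehicle within libraries 1 to 36). No paired analysis was possible because the columns carry no replicate number. For Slc25a12 in WT DESeq2 gave no adjusted p.

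Some GW differences changed sign, none of which passed, and the cause was not tested. Within libraries 1 to 36 these were Slc25a24 in WT (-0.0763), Slc25a11 (0.11), Slc25a4 (-0.10) and Slc25a5 (-0.0124) in D, and Slc25a11 in DA (0.046). Within 37 to 60 they were Slc25a3 in WT (9e-04), Slc25a11 (0.011) and Slc25a51 (-0.40) in A, and Slc25a17 (0.20), Slc25a3 (0.0243) and Slc25a4 (-0.63) in DA. Without the filter Slc25a5 in D was -0.0103. Leaving out a library gave ranges across 0 for Slc25a3 (-0.156 to 0.0217) and Slc25a5 (-0.0968 to 0.0202) in WT, Slc25a4 (-0.0419 to 0.204) and Slc25a5 (-0.0612 to 0.11) in D, Slc25a11 (-0.25 to 4e-04) and Slc25a5 (-0.0752 to 0.0321) in A, and Slc25a11 in DA (-0.23 to 0.0779).

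The family's share of counts without Slc25a5 was 0.0751% in vehicle WT, 0.0778% in GW WT, 0.0760% in vehicle D, 0.0833% in GW D, 0.0867% in vehicle A, 0.0838% in GW A, 0.0817% in vehicle DA and 0.0794% in GW DA. Within libraries 37 to 60 the whole share was 0.379% in vehicle WT, 0.386% in GW WT and 0.393% in vehicle A. Between the runs, library size in place of TMM gave 6 members, and leaving out a library gave 3 to 5, the 5 (with Slc25a39 and Slc25a4) without vehicle DA replicate 4.

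Counts of all genes that passed moved by over 1.5 times in each comparison, and the cause was not tested beyond the construction: the highest counts were all without the filter, where 20192 genes were tested. Main counts, with the lowest and highest over the settings and left-out libraries, were 20 (11 to 45) for GW in WT, 0 (0 to 8) in D, 15 (3 to 28) in A, 0 (0 to 10) in DA and 32 (14 to 54) for their mean. For the difference of the response from WT they were 0 (0 to 12) in D, 0 (0 to 8) in A and 4 (0 to 20) in DA. Against WT in vehicle they were 2 (0 to 18) for D, 4 (0 to 54) for A and 16 (0 to 80) for DA, and under GW 3 (1 to 17), 9 (0 to 58) and 41 (20 to 110). DA in vehicle had 0 genes without the columns with suffix 2, and 0 to 6 when a library was left out.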
